A study of Mus musculus with 5 samples.

Results

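This account concerns 10 genes for surface proteins of B lymphocytes that are used to mark the later stages of the lineage: Ms4a1, Cd22, Cd72, Cd24a, Cd37, Fcer2a, Cr2, Fcrla, Cd38 and Cd40. They were chosen by name, and all 10 were found among the 39056 genes of the count table. RNA had been sequenced from Lin-Sca-1+Kit+ (LSK) cells, the marrow fraction of blood stem cells and multipotent progenitors, taken from C57BL/6 mice at postnatal day 15. One group of 2 libraries came from wild-type (WT) mice and one of 3 libraries from Gabbr1 null mutant mice, which lack a subunit of the GABA-B receptor, and each library was made from about 12000 sorted cells. How the null allele was made, whether each library came from its own animal, and which antibodies made up the lineage mix are not stated in the sources used here, so p-values measure only the spread between these libraries. The comparison asks how B cell surface transcripts in this fraction differ between the genotypes, with early-stage markers set beside the late ones.

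B cells form in the marrow through pro-B and pre-B stages, in which the heavy and light chain genes are rearranged, and leave it as immature cells that finish maturing in the spleen. Surface proteins appear in sequence along this path. The signalling chains Cd79a and Cd79b are made from the pro-B stage on, Ms4a1 (the CD20 antigen) and Cd22 follow later, and Fcer2a (CD23) and Cr2 (CD21) mark cells that have reached the periphery. Several of the 10 proteins are not restricted to B cells. Cd24a is abundant on red cell precursors and granulocytes as well as early B cells. Cd37 is a tetraspanin of most leukocytes, and Cd38 is carried by stem cells of adult mice. Fcrla differs from the rest in that its protein stays inside the cell, in the endoplasmic reticulum.

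Total counts lay between 6972753 and 8150774 per library, and 3 counts stood for 0.369 to 0.427 CPM, the unit used below for counts scaled to library size. The sort markers did not differ by the test: Kit averaged 1022 ± 37.7 CPM (SD) over 2 WT libraries and 912 ± 66.4 CPM (SD) over 3 null ones (adjusted p by edgeR = 0.643), and Ly6a, which encodes Sca-1, was 28.6 ± 2.48 and 22.3 ± 8.59 CPM (SD, n = 2 and 3; adjusted p by edgeR = 0.644). Gabbr1 itself fell, with 402 and 403 counts in WT and 289, 264 and 268 in null (log2 fold change -0.59 ± 0.13 standard error, adjusted p by edgeR = 0.0361), and since the deleted part is not known these reads do not check the labels. The call of Gabbr1 was lost with null library 2 or null library 3 left out, as it was without either WT library. Null library 1 stood apart in that it alone held Xist RNA at a high level (22532 counts, against at most 21 in the other 4) and had the most RNA of maturing neutrophils, as given further on.

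Ms4a1, Cd22, Cd38 and Cd24a were higher in the null libraries, and Fcrla, Cd72, Cd37 and Fcer2a did not pass the test. These are 4 of the 8 genes that could be tested, with none lower, at an adjusted p under 0.05 in edgeR, a threshold that 2.15% of all 13467 tested genes passed as higher and 0.334% as lower. DESeq2 placed 5 of the 8 higher (2.5% of all genes, with 0.379% lower) and limma-voom 4 (1.62%, with 0.26% lower). At an unadjusted p under 0.05 in edgeR, 5 were higher and none lower, against 7.99% and 4.84% of all genes. The other 2 genes, Cr2 and Cd40, were below the filter on low counts (CPM of about 1.28 in at least 2 libraries). Ms4a1 and Cd22 entered the test only through the null libraries, so their entry into the test already required a difference. Cd38 and Fcrla had 1 WT and 3 null libraries past the filter, so WT alone would not have let them in. The count of 4 is therefore a description. The median log2 fold change was 1.27 over the 8 tested genes and -0.00 over all tested genes. In bulk RNA, more cells of a type and more RNA per cell cannot be told apart.

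**Figure D1:**
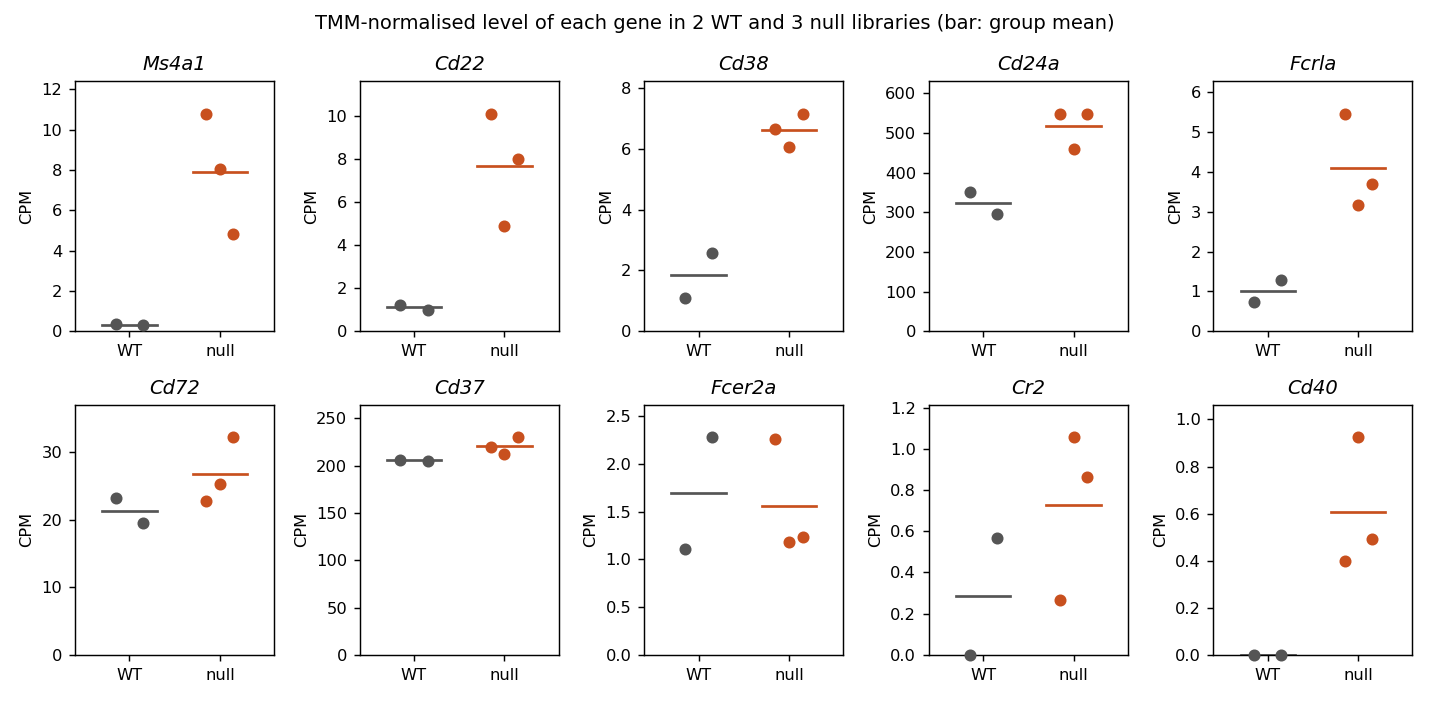
Level of each of the 10 genes in CPM (y axis, linear, from 0) in the 2 WT libraries (grey) and 3 null libraries (orange), with a bar at each group mean. The groups do not overlap for Ms4a1, Cd22, Cd38, Cd24a, Fcrla, Cd37 and Cd40, and they overlap for Cd72, Fcer2a and Cr2.

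Ms4a1, the CD20 antigen and a membrane protein that takes part in calcium signalling of B cells, had the largest fold change of the 8 genes tested. It had 3 and 2 counts in WT and 81, 61 and 39 counts in null libraries 1, 2 and 3. In CPM these were 0.369 and 0.285 against 10.8, 8.05 and 4.81, so that the lowest null library was 13.0 times as high as the highest WT library. The gene lies on chromosome 19 (mm10, 11249675 to 11266241, ENSMUSG00000024673.9). Its log2 fold change was 4.51 ± 0.56 (standard error, adjusted p by edgeR = 0.00109). Summed over each group, the ratio of null to WT was 23.6, with an exact 95% interval of 9.95 to 73.7 that covers counting error only. WT rested on 5 counts in all, and the null libraries differed among themselves by 2.24-fold.

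Cd22 and Cd72 encode inhibitory co-receptors that dampen signals from the B cell receptor, the first as a lectin that binds sialic acid and the second as a C-type lectin. Cd22 (chromosome 7, 30865402 to 30880342, ENSMUSG00000030577.14) had 10 and 7 counts in WT and 76, 37 and 65 in null. WT averaged 1.11 ± 0.165 CPM (SD, n = 2) and null 7.67 ± 2.64 CPM (SD, n = 3), without overlap. It rose by 2.76 ± 0.43 on the log2 scale (standard error, adjusted p by edgeR = 0.00462). Cd72 (chromosome 4, 43446462 to 43454628, ENSMUSG00000028459.11), by contrast, was read at similar levels in both groups. The WT libraries stood at 23.1 and 19.5 CPM and the null ones at 22.8, 25.3 and 32.2, and null library 1 lay below WT library 1. The log2 fold change of Cd72 was 0.33, with a 95% interval of -0.08 to 0.73 (adjusted p by edgeR = 0.508).

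Both genes share exon sequence with a gene on the other strand, and the strand setting of the counting is not stated in the sources used here. Cd72 overlaps the kinase gene Tesk1 over 1423 bases of exon, and Tesk1 itself had 253 and 301 counts in WT and 197, 264 and 199 in null. Cd22 overlaps Gm29439 over 479 bases, but no gene of that name was found in the count table. How reads of that stretch were counted is not known. Reads from the stretch shared with Tesk1 may have been dropped or split, and the level of Cd72 is therefore the less certain of the pair. For Cd24a, 218 bases of transcript match the processed pseudogene Gm6212, and for Ms4a1 stretches of 153 and 162 bases match Mia2 and OR5BS1P.

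Fcrla, an Fc receptor-like protein of B cells, had the third-largest fold change of the genes tested but missed the threshold. It had 6 and 9 counts in WT and 41, 24 and 30 in null (chromosome 1, 170917576 to 170927583, ENSMUSG00000038421.13). Its log2 fold change was 2.02 ± 0.49 (standard error, adjusted p by edgeR = 0.0533), with an interval of 0.96 to 3.09. All 3 null libraries lay above both WT libraries. DESeq2 called it higher (adjusted p = 0.0347), as did the robust edgeR fit (adjusted p = 0.0298), while limma-voom did not (adjusted p = 0.11).

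The promoters of Cd22 and Fcrla are shown beside that of Cd72, since the first pair had the null libraries above WT and the third did not. They lie within 250 bases before the RefSeq start (GRCm38.p6), are read 5′ to 3′ on the minus strand, which is the strand of all 3 genes, and are cut to the stretch outside annotated exons. Capitals mark matches to 4 motifs of B cell and blood transcription factors, searched on both strands over the 250 bases before the start: the palindrome of EBF1, CAGGTG for the E-box bound by E2A, GAGGAAG for PU.1 and ATGCAAAT for the octamer. The windows are chr7:30879029-30879176 for Cd22, chr1:170927584-170927833 for Fcrla and chr4:43454629-43454876 for Cd72.
Cd22: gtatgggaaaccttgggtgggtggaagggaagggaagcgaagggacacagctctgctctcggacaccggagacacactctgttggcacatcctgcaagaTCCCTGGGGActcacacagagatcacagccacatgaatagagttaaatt
Fcrla: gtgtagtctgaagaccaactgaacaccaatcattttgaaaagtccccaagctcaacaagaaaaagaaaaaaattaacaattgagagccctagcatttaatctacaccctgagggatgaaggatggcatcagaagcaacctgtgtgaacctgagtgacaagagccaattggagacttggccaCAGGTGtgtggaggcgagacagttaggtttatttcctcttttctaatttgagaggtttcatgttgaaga
Cd72: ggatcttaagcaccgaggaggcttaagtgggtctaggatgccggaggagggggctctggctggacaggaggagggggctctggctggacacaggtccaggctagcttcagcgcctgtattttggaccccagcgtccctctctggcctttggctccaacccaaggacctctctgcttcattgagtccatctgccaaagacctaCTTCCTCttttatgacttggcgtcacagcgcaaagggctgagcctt

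Cd22 held an EBF1 match that begins 49 bases before the start, a match found in 0.779% of the 32851 promoter windows of the table. Fcrla held an E-box match 69 bases before its start (17.2% of windows) and Cd72 a PU.1 match 48 bases before its start (10.6% of windows). Of the 9 windows of these genes, 5 held the E-box, including those of Cd37 and Cr2 and 1 of Fcer2a, and 2 held the PU.1 motif, the other being that of Cd37. The octamer was in 1.6% of all windows and in none of the 9. Cd38, which was called higher, held no match to any of the motifs. Its window lay within annotated exons and is not printed. Promoters were given for 7 of the 10 genes, Fcer2a with 3 starts, and Ms4a1, Cd24a and Cd40 had no entry. Cd22 also had an E-box match 245 bases before its start, in the exonic part that is not printed. A match is a run of letters and not a measured binding site.

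Cd24a, a small glycosylated surface protein anchored by lipid, was the most abundant of the 10 genes per kb of exon and had the smallest fold change of the 4 that rose. It had 2859 and 2071 counts in WT and 4118, 3477 and 4445 in null (chromosome 10, 43578284 to 43584265, ENSMUSG00000047139.9). In CPM it was 352 and 295 in WT and 549, 459 and 548 in null, without overlap. Its log2 fold change was 0.68 ± 0.14 (standard error, adjusted p by edgeR = 0.0202), or 1.6-fold. Red cell precursors and granulocytes also carry this protein, and the markers of both moved between libraries. The 10 markers of maturing neutrophils summed to 146 and 108 CPM in WT and to 2213, 591 and 135 CPM in null libraries 1, 2 and 3. The 8 markers of late red cells summed to 5.79 and 5.41 CPM for WT and 39.4, 9.24 and 4.69 for null. Hba-a1 and Hba-a2 were at 0 throughout, while Hbb-bt had 39 and 29 counts in WT and 32, 10 and 22 in null. How reads with several matches were counted is not stated, so these zeros need not mean that alpha globin RNA was absent. The part of red cell precursors and granulocytes in the Cd24a result was not tested. The call of Cd24a was kept without null library 1 (log2 fold change 0.64, adjusted p by edgeR = 0.0326) and lost without null library 3 (adjusted p = 0.0741), WT library 1 (adjusted p = 0.066) or WT library 2 (adjusted p = 0.304).

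Cd38, an enzyme at the cell surface that breaks down NAD, had 9 and 18 counts in WT and 50, 46 and 58 in null (chromosome 5, 43868553 to 43912375, ENSMUSG00000029084.5). The 3 null libraries were close together, at 6.07 to 7.15 CPM, while the WT libraries differed by 2.31-fold. The log2 fold change was 1.87 ± 0.39 (standard error, adjusted p by edgeR = 0.0263). The Cd38 transcript was low in the WT libraries, at 1.84 ± 1.03 CPM (SD, n = 2).

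Cd37 was read at nearly equal levels in all 5 libraries. The WT libraries stood at 206 and 205 CPM and the null ones at 219, 212 and 230 (chromosome 7, 45233632 to 45239115, ENSMUSG00000030798.15). The null libraries lay just above WT, by 1.03-fold from the highest WT to the lowest null library. With a log2 fold change of 0.10, a 95% interval of -0.12 to 0.33 and an adjusted p by edgeR of 0.76, Cd37 did not pass. Values without overlap in either direction were found for 29.2% of all tested genes, and higher in null for 15.5%. Of the 8 tested genes here, 6 had null values above WT without overlap. Among them, Ms4a1, Cd22, Cd38 and Fcrla would not have been tested on the WT libraries alone.

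The markers of the most mature cells were near the limit of detection in both genotypes. Fcer2a, the low-affinity receptor for immunoglobulin E, had 9 and 16 counts in WT and 17, 9 and 10 in null (chromosome 8, 3681737 to 3694175, ENSMUSG00000005540.10). Its values overlapped fully between the groups, and its log2 fold change was -0.10 with a wide interval of -1.29 to 1.09 (adjusted p by edgeR = 0.97). The sign turned to 0.49, 0.06 and 0.05 without WT library 2, null library 2 and null library 3.

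Cr2, a complement receptor that acts as a co-receptor of the B cell receptor, had 0 and 4 counts in WT and 2, 8 and 7 in null (chromosome 1, 195136811 to 195176716, ENSMUSG00000026616.15). WT library 2 lay above null library 1, and the exact two-sided permutation p was 0.3, where 10 splits of 2 against 3 libraries make 0.1 the smallest possible. Cd40, the receptor for helper signals from T cells, had no count in WT and 3, 7 and 4 counts in null (chromosome 2, 165055627 to 165072948, ENSMUSG00000017652.16). With a floor of 3 counts put in place of the WT total, the ratio of null to WT was 3.05. That ratio carries no interval and is not a lower limit. The exact two-sided permutation p for Cd40 was 0.1, the smallest possible. With no filter on low counts edgeR tested both and called neither (adjusted p = 0.819 for Cr2 and 0.177 for Cd40).

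Levels were set per kb of exon to compare genes with one another. In the null libraries Cd24a came first, at 201 ± 20.0 CPM per kb (SD, n = 3), followed by Cd37 at 62.6 ± 2.48 and Cd72 at 7.82 ± 1.42 CPM per kb (SD, n = 3). Fcrla, Cd38, Cd22 and Ms4a1 followed at 2.36 ± 0.689, 1.70 ± 0.139, 1.52 ± 0.523 and 1.27 ± 0.484 CPM per kb (SD, n = 3), and each overlapped its neighbour in this order. The order of these 4 depended on the length used: per kb of the longest transcript Ms4a1 came first among them, at 2.56, ahead of Fcrla at 2.45, Cd38 at 2.03 and Cd22 at 1.93. Fcer2a, Cd40 and Cr2 came last, at 0.505 ± 0.197, 0.178 ± 0.0821 and 0.0898 ± 0.0507 CPM per kb (SD, n = 3), of which Cd40 and Cr2 overlapped. WT had the same first 3 genes, at 125 ± 15.6, 58.3 ± 0.221 and 6.23 ± 0.750 CPM per kb (SD, n = 2). Below them the order differed: Fcer2a, at 0.548 ± 0.268 CPM per kb, stood within the spread of Fcrla and Cd38 in WT, and Ms4a1 was at 0.0529 ± 0.00965 CPM per kb (SD, n = 2). The 3 most abundant genes were thus the ones that WT cells also expressed well.

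**Figure D2:**
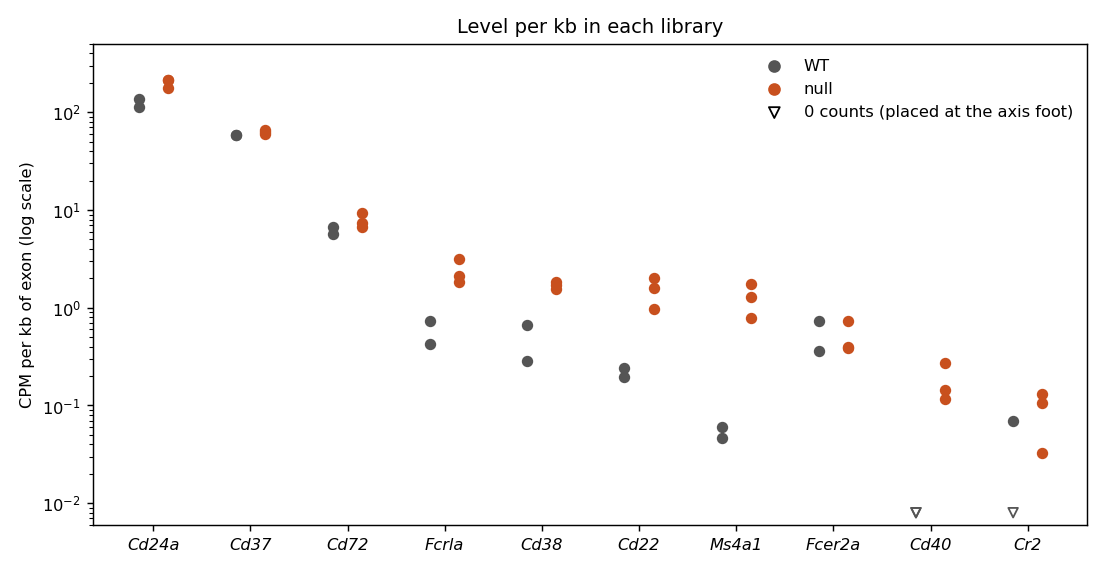
Level of each gene in CPM per kb of exon (y axis, log scale) in each WT (grey) and null (orange) library, ordered by the null mean, with libraries at 0 counts drawn as open triangles at the foot of the axis. Cd24a, Cd37 and Cd72 lead in both groups, and Cd40 is at 0 counts in both WT libraries.

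Surface molecules of the early stages were set beside these genes. Of 15 such genes 14 were tested, and 10 were higher and none lower in null (at the same threshold, against 2.15% and 0.334% of all tested genes), with a median log2 fold change of 2.29. Cd79a and Cd79b, the signalling chains of the B cell receptor, rose by 2.75 ± 0.33 and 1.45 ± 0.18 (standard error, adjusted p by edgeR = 0.000889 and 0.00109). Bst1, an enzyme at the surface of early B cells and stroma that is related to Cd38, rose by 3.51 ± 0.54 (standard error, adjusted p by edgeR = 0.00421), but it entered the test only through the null libraries and limma-voom did not call it (adjusted p = 0.108). Vpreb1, Vpreb2 and Igll1 encode proteins that form the surrogate light chain. For these genes and Vpreb3 the test gave log2 fold changes between 2.83 and 3.17. All were called, as were Il7r and Ly6d. Vpreb2, with 16 and 5 counts in WT, would not have been tested on the WT libraries alone. The 2 WT libraries differed by 8.45-fold for Vpreb3, 3.63-fold for Igll1 and 2.04-fold for Cd79a. For Ly6d they were close, at 5.42 and 4.70 CPM. The robust edgeR fit did not call Cd79a, Vpreb1, Vpreb3, Igll1 and Il7r (adjusted p = 0.181, 0.281, 0.376, 0.286 and 0.163), nor DESeq2 Vpreb3 (adjusted p = 0.0781). Before adjustment, edgeR had 10 early genes higher and 2 lower (Flt3 and Crlf2) at p under 0.05, against 7.99% and 4.84% of all genes. The tested early genes that did not pass after adjustment were Flt3, Cd93, Spn and Crlf2. Like the called Bst1, they are not restricted to B cells. Flt3 averaged 951 ± 15.1 CPM (SD) over 2 WT libraries and 779 ± 37.5 CPM (SD) over 3 null ones. Without WT library 2, 9 of the 10 calls were lost.

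Other genes of transitional and mature B cells were less uniform. Of 26 genes 24 were tested, 4 were higher and none lower (2.15% and 0.334% of all tested genes), and the median log2 fold change was 0.34. Fcmr, the receptor for immunoglobulin M, resembled Ms4a1, with 1 and 2 counts in WT and 63, 46 and 45 in null. Its null to WT ratio was 33.5 (exact 95% interval 11.3 to 164, for counting error only, and adjusted p by edgeR = 0.000703). Like Ms4a1, it entered the test only through the null libraries. Cd74, the invariant chain of MHC class II, and Siglecg, a sialic acid receptor related to Cd22, rose by 1.55 ± 0.30 and 0.70 ± 0.15 on the log2 scale (standard error, adjusted p by edgeR = 0.0172 and 0.0316). Cd74 was not called by DESeq2 (adjusted p = 0.0665) or by the robust edgeR fit (adjusted p = 0.401). Genes of mature cells such as the chemokine receptor Cxcr5 (1.66 ± 0.78 standard error, adjusted p by edgeR = 0.405) and the delta heavy chain Ighd (0.91 ± 0.25 standard error, adjusted p by edgeR = 0.0946) did not pass. Without WT library 2, Fcmr alone of the 4 kept its call. Whether the early, the later-stage and the other mature genes differ from one another as lists was not tested.

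**Figure D3:**
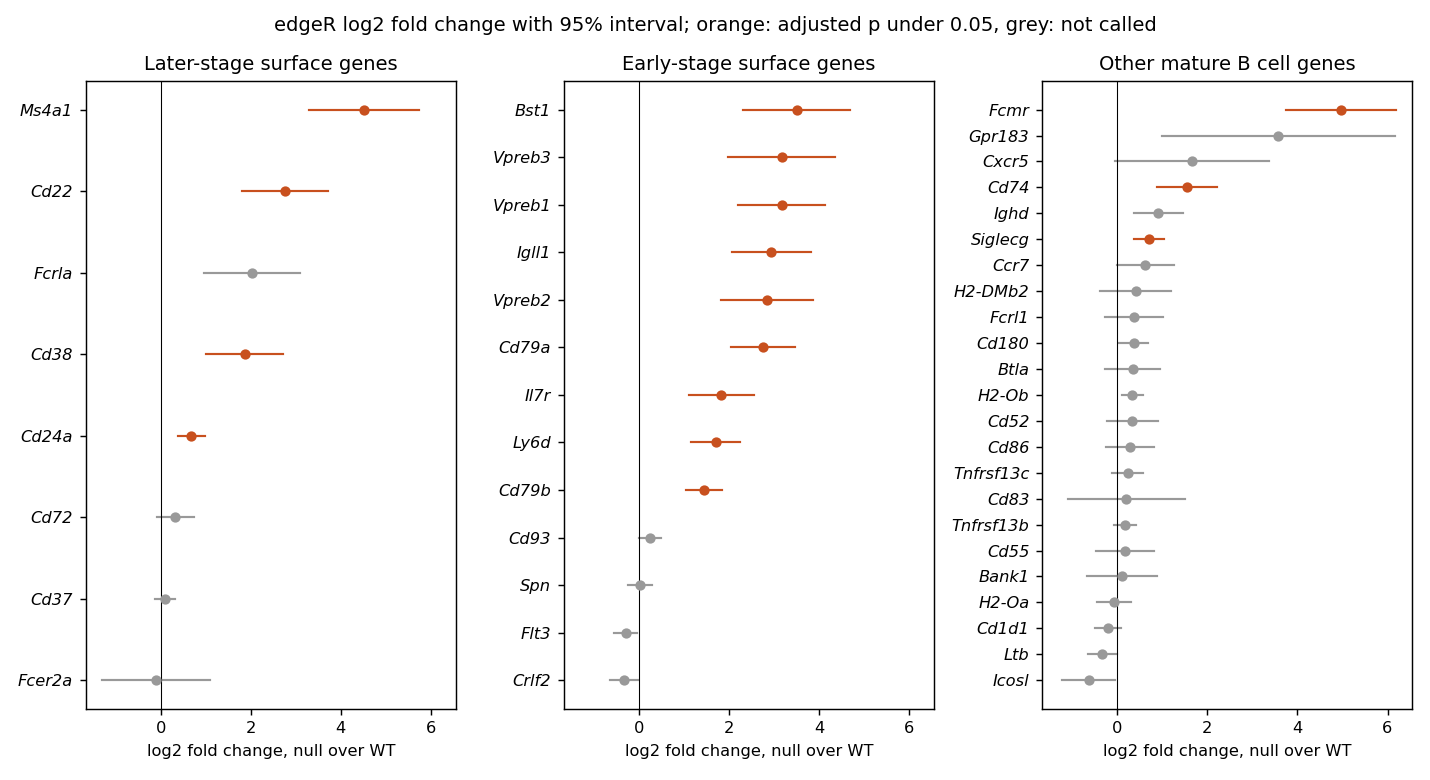
Log2 fold change of null over WT (x axis) with its 95% interval for tested genes of the 10 later-stage surface genes, of the early-stage surface genes and of other mature B cell genes, orange where edgeR's adjusted p was under 0.05 and grey elsewhere. Ms4a1, Cd22, Cd38 and Cd24a are orange in the first panel, and Fcmr, Cd74 and Siglecg in the third.

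The proteins that work with these receptors were examined next. Of 18 kinases, adaptors, phosphatases and co-receptors of B cell receptor signalling, 4 were higher and none lower (2.15% and 0.334% of all tested genes), with a median log2 fold change of 0.23. Blnk, the adaptor that links the receptor to phospholipase, rose from 22.3 ± 14.4 CPM over 2 WT libraries to 173 ± 55.0 CPM over 3 null ones (SD; log2 fold change 2.94 ± 0.36 standard error, adjusted p by edgeR = 0.00097), a call the robust edgeR fit did not make (adjusted p = 0.238). Blk, a B cell kinase of the Src family, rose by 2.53 ± 0.35, the kinase gene Prkcb by 1.54 ± 0.20 and the inhibitory adaptor Dok3 by 1.39 ± 0.23 (standard error, adjusted p by edgeR = 0.00208, 0.00131 and 0.00728). Blk had 14 and 8 counts in WT, and the WT libraries alone would not have let it into the test. The broadly expressed members, such as Syk, Plcg2 and the phosphatase Ptpn6 that is recruited by Cd22 and Cd72, did not pass, and without WT library 2 none of the 4 calls held. Ptpn6 had a log2 fold change of -0.21 ± 0.11 (standard error, adjusted p by edgeR = 0.476).

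In the CD40 pathway 1 of 15 tested genes passed as lower and none as higher in edgeR (0.334% and 2.15% of all tested genes), and likewise with the other tools. Before adjustment, edgeR had 4 lower and 0 higher at p under 0.05, against 4.84% and 7.99% of all genes. Nfkb2, the NF-kB subunit of the non-canonical route, fell from 47.5 ± 5.17 CPM over 2 WT libraries to 31.1 ± 1.58 CPM over 3 null ones (SD; adjusted p by edgeR = 0.0349). Its partner Relb had a log2 fold change of -0.79 ± 0.19 (standard error, adjusted p by edgeR = 0.057). Leaving out any library but null library 1 ended the call of Nfkb2, with adjusted p by edgeR of 0.0686 to 0.359. Cd40lg, the ligand, had no count in any library. Of 11 other tetraspanins, the family of Cd37, none passed with any of the 3 tools. Before adjustment edgeR placed 2 of them higher and 1 lower at p under 0.05, against 7.99% and 4.84% of all genes.

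The 4 calls rested on having both WT libraries. With WT library 1 left out none of the 10 genes passed in edgeR (adjusted p = 0.0505 for Ms4a1, 0.0816 for Cd22, 0.066 for Cd24a and 0.145 for Cd38), and with WT library 2 left out none did either (0.0956, 0.187, 0.304 and 0.0998). In those fits the one WT library left was assumed to vary like the null ones, and 0.721% and 0.227% of all genes were called higher. Leaving out null library 1 kept all 4 calls (1.88% of all genes), and leaving out null library 2 added Fcrla (2.38%). Without null library 3 (2.39%), Cd24a and Cd38 were lost (adjusted p by edgeR = 0.0741 and 0.0585). The direction of the 4 genes held in each of these fits, with log2 fold changes of 4.22 to 4.77 for Ms4a1, 2.51 to 3.00 for Cd22, 0.56 to 0.80 for Cd24a and 1.35 to 2.56 for Cd38.

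**Figure D4:**
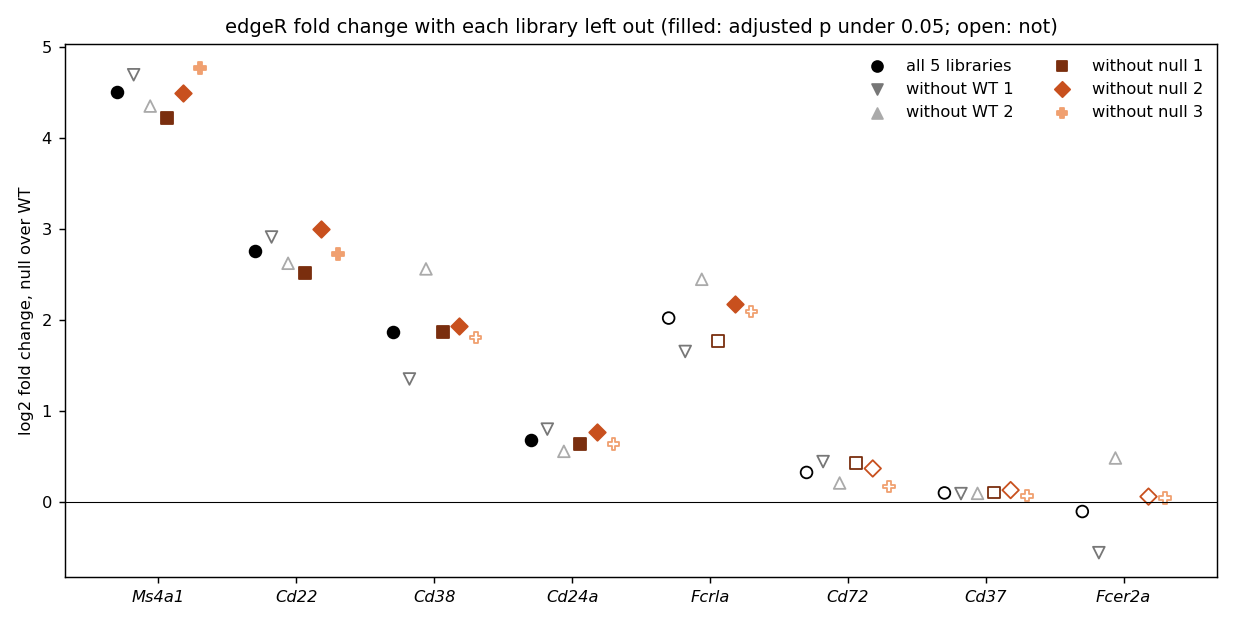
Log2 fold change of null over WT (y axis) for the 8 tested genes with all 5 libraries and with each library left out in turn, filled where edgeR's adjusted p was under 0.05 and open where it was not. Ms4a1, Cd22, Cd38 and Cd24a stay above 0 in every fit shown, and none is filled without either WT library.

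Markers of other cell types moved between libraries too, and their part in these results was not tested. Of 9 endothelial and stromal markers 6 were higher in null (2.15% of all tested genes). None of the 6 would have passed the filter on the WT libraries alone, and for Sparc and Lepr no WT library was past it. The 9 summed to 166 and 177 CPM for WT and 351, 362 and 267 for null. Of 6 tested markers of dendritic cells, which can also express Cd24a and Cd40, none passed in edgeR or limma-voom. DESeq2 placed 1 higher (2.5% of all genes). Before adjustment, edgeR had 2 higher and 1 lower at p under 0.05, against 7.99% and 4.84% of all genes. The 10 listed dendritic cell markers summed to 73.4 and 65.8 CPM for WT and 94.1, 58.2 and 70.6 for null. Of 4 markers of follicular dendritic cells, which also carry Cr2 and Fcer2a, Cxcl13 and Madcam1 had no count in any library. Mfge8, which other cells express too, had 450 and 514 counts in WT and 396, 389 and 468 in null, and Clu had 5 and 0 in WT and 25, 23 and 13 in null (adjusted p by edgeR = 0.0865, by DESeq2 = 0.0391). Clu entered the test only through the null libraries. Markers of T cells summed to 78.4 and 107 CPM for WT and 80.5, 79.3 and 82.2 for null, and Cd3e had at most 2 counts in a library.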

How the data were processed

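The data were 5 libraries of LSK cell RNA. Per the labels' protocols, total RNA entered a low-input kit with depletion by mouse probes and was read as pairs of 50 bases. STAR, featureCounts and mm10 were used, per the submitters' processing notes, with no versions. The authors deposited raw counts per gene, without normalization. Strand setting, annotation release and treatment of reads with several matches are not stated in the sources used here.

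Symbols and coordinates came from GENCODE M21 (mm10), which matched 99.5% of 39056 identifiers. Genes were kept with filterByExpr by group (13467), scaled with TMM and tested with edgeR 4.0.16 (R 4.3.3; quasi-likelihood F tests), genotype being the only term. P-values were adjusted by Benjamini-Hochberg over all tested genes, with 0.05 as the threshold. DESeq2 1.42.0, limma-voom (limma 3.58.1), other scalings and filters, a robust fit and each library left out were alternatives. Their counts over the 10 genes were added after the data were seen. CPM are TMM-normalised, and levels per kb use the union of exons. Libraries of a group differed by more than sampling noise (chi-square per degree of freedom at least 7.61). Promoters came from RefSeq (GRCm38.p6).

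The 10 genes and all lists were chosen with earlier results of these data known. Named were the 10 genes, Gabbr1, Kit and Ly6a, list members past the threshold and the 2 most abundant of each list. Ptpn6, Relb, Sparc, Lepr, Spn, Crlf2, Cxcr5, Ighd, Cd40lg, Cd3e, Xist, Tesk1, Hba-a1, Hba-a2, Cxcl13, Madcam1 and, in the closing section, Gpr183 and Jchain were named after their values were seen. Some genes of these lists are counted but not reported here by name.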

Additional observations from a re-analysis of the deposited data

How the results depend on the processing

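No paired analysis was possible because the labels carry no replicate numbers, and libraries were numbered in sample order. The count of the 10 genes higher in null was 4; RLE and upper quartile factors and limma-voom gave 4, DESeq2, the robust fit and no filter 5, and the stricter filter (CPM of at least 1 in every library), which did not test Ms4a1 and Fcrla, 3. Leaving out each library gave 0 to 5. None of the 10 was lower in any of these fits. Over all genes, 289 were higher and 45 lower; without a filter these were 602 and 155, with the stricter filter 173 were higher, and at an adjusted p of 0.1 there were 81 lower. With each library left out in turn the counts ran from 32 to 316 higher and from 0 to 51 lower, both smallest without WT library 2. Of 25 genes under the naming rule that passed, 23 lost the call without WT library 2, 13 of them also without WT library 1, while Fcmr, which entered only through the null libraries, passed in each alternative that tested it. Some log2 fold changes near 0, called in no fit, turned sign when a library was left out: Fcer2a ran from -0.55 to 0.49, Cd4 from -0.39 to 0.16, Lck from -0.43 to 0.16, Bst2 from -0.35 to 0.083, Emcn from -0.041 to 0.071, Ikbkb from -0.11 to 0.045 and Nfkb1 from -0.082 to 0.0073. The cause was not tested. Fcer2a, Cr2 and Cd40 had at most 17 counts per library, which limits what could be detected.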

Other observations

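Within the null group the later-stage genes did not vary together from library to library. Null library 3 had the fewest Ms4a1 counts (39, against 81 and 61). The other mature B cell genes Gpr183 and Cxcr5 were also lowest there, at 2 and 6 counts against 22 and 21 in null library 1 and 16 and 21 in null library 2. Fcmr was at 63, 46 and 45 counts and Cd22 at 76, 37 and 65, so that the pattern was not shared by every mature gene. With 3 libraries no test of this order was made.

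Of 7 tested plasma cell markers 2 were higher and none lower in null (2.15% and 0.334% of all tested genes). Mzb1, a chaperone of immunoglobulin assembly that B cells also express, rose by 1.61 ± 0.27 on the log2 scale (standard error, adjusted p by edgeR = 0.0076), a call lost without WT library 1 or WT library 2. Jchain, the joining chain of secreted antibody, had 118 and 189 counts in WT and 1, 89 and 85 in null (log2 fold change -1.46, adjusted p by edgeR = 0.375).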
